A study of Mus musculus with 2 samples.

Results

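Plasmacytoid dendritic cells (pDCs) were looked for in Sc-RNA-Seq counts of bone marrow cells (BMCs) from 1 WT and 1 Cko mouse. The cells described here were chosen by their own counts. A barcode with at least 200 genes was taken when it held at least 2 UMIs (unique molecular identifiers, each standing for 1 captured RNA) of *Siglech*, when *Camp*, *Ngp*, *Ltf*, *Lcn2*, *S100a8* and *S100a9* made up under 5% of its UMIs, and when hemoglobin genes made up under 1%. This gave 73 of 9933 kept cells, 34 of 6271 in WT and 39 of 3662 in Cko, which are called pDC-like cells because their name rests on marker RNA alone.

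Both mice were C57BL6/J at postnatal day 21, and their marrow came from hindlimbs and forelimbs after lysis of red blood cells. In the Cko mouse S1P (site-1 protease, encoded by *Mbtps1*) was ablated with a Cre recombinase under the osterix (*Sp7*) promoter, which drives it in the bone-forming lineage. The study proposes that this promoter is also active in blood-forming cells. It found the *Mbtps1* deletion in sorted neutrophils of every Cko mouse examined for it. Whether the pDC-like cells carried the deletion was not tested. The study describes its WT mice as homozygous for the floxed S1P allele, while the labels of these libraries give only WT. With 1 mouse per genotype no test of genotype was possible, and every interval below covers counting error only.

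The libraries held 56382459 UMIs in WT and 34447224 in Cko, with a median of 6977 and 7440 UMIs per kept cell. The pDC-like cells were shallower, with a median of 4474.5 UMIs in WT (lowest 3004, highest 11124) and 4536 in Cko (lowest 3185, highest 28519). The files list 7181 genes in WT and 6735 in Cko, 6001 of them in both, and each listed gene reached at least 4 UMIs in some cell. A gene that is not listed was therefore not read as 0. The libraries shared 28 cell barcodes, none of them in pDC-like cells of both, and none of the pDC-like cells was called a doublet. *Xist* was listed only in Cko and *Ddx3y* and *Eif2s3y* only in WT, so that the genotypes cannot be told apart from the sexes.

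pDCs are the dendritic cells that take up and sense viral nucleic acids in endosomes and answer with type I interferon. Their identity depends on the E protein *Tcf4*, which acts on E-box sequences with *Irf8*, *Spib*, *Runx2* and *Bcl11a*, and they are formed in the marrow before they move through the blood to lymphoid and mucosal tissue. *Siglech* and *Bst2* encode surface proteins by which mouse pDCs are sorted, *Bst2* being also an interferon-induced restriction factor, and *Ly6d* marks lymphoid precursors with pDC and B cell potential.

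The sequences upstream of 3 of the marker genes are shown because *Tcf4* and interferon act through short motifs of such windows. They are the 250 bases before the RefSeq start on the gene's strand, in GRCm38.p6. *Siglech* is at chr7:55767934-55768183 on the + strand, *Bst2* at chr8:71537473-71537722 on the - strand and *Irf8* at chr8:120736108-120736357 on the + strand. Capitals mark E-boxes (CANNTG) in *Siglech* and the interferon-stimulated element (GAAA, any 2 bases, GAAA) in *Bst2*, searched on both strands.
Siglech: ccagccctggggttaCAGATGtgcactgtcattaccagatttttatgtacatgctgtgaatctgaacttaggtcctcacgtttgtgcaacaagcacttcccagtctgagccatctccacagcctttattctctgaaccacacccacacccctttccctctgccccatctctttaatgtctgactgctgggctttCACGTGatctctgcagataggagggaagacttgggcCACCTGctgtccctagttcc
Bst2: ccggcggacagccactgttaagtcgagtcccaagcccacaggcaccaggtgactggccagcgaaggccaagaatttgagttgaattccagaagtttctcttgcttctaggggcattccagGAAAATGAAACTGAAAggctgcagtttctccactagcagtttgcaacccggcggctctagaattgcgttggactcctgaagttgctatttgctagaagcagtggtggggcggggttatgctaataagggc
Irf8: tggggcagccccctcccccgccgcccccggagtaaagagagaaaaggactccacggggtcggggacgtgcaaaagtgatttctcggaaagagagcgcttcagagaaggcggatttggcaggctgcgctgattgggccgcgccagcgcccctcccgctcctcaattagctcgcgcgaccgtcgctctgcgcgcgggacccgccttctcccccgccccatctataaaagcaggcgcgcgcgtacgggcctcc
The *Siglech* window held 3 E-boxes, which began at positions 16, 195 and 231 from its 5′ end. The *Bst2* window held 2 overlapping interferon-stimulated elements, at positions 121 and 127, and 1 E-box that is not in capitals. This *Irf8* window held neither motif, whereas the window of a second RefSeq start of the gene, at chr8:120738389-120738638, held 2 E-boxes at positions 46 and 58. The first window's G and C content was 67.2%, against 50.8% for *Siglech* and 52.4% for *Bst2*. Of 27025 promoter windows of this length, 66.0% held an E-box and 3.04% held the interferon-stimulated element, so the first motif is common among promoters of any kind. A match is a description of the letters and not of a bound site.

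Of the 3 marker genes that the selection did not use, *Irf8* and *Bst2* were present in nearly all pDC-like cells and *Ly6d* in most of them. *Irf8* (chr8:120736358-120756694) was found in 34 of 34 cells in WT, at 4 to 33 UMIs with a median of 14.5, and in 39 of 39 in Cko, at 6 to 36 with a median of 17. *Bst2* (chr8:71534255-71537456) was found in 34 of 34 and 38 of 39 cells, with a median of 11.5 UMIs in WT and 14 in Cko. *Ly6d* (chr15:74762056-74763620) was more uneven. It was found in 27 of 34 and 29 of 39 cells, and ran from 0 to 57 UMIs in WT and from 0 to 81 in Cko. All 4 markers were present together in 27 WT and 28 Cko cells, and the other 7 and 11 cells each lacked exactly 1 of them.

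**Figure D1:**
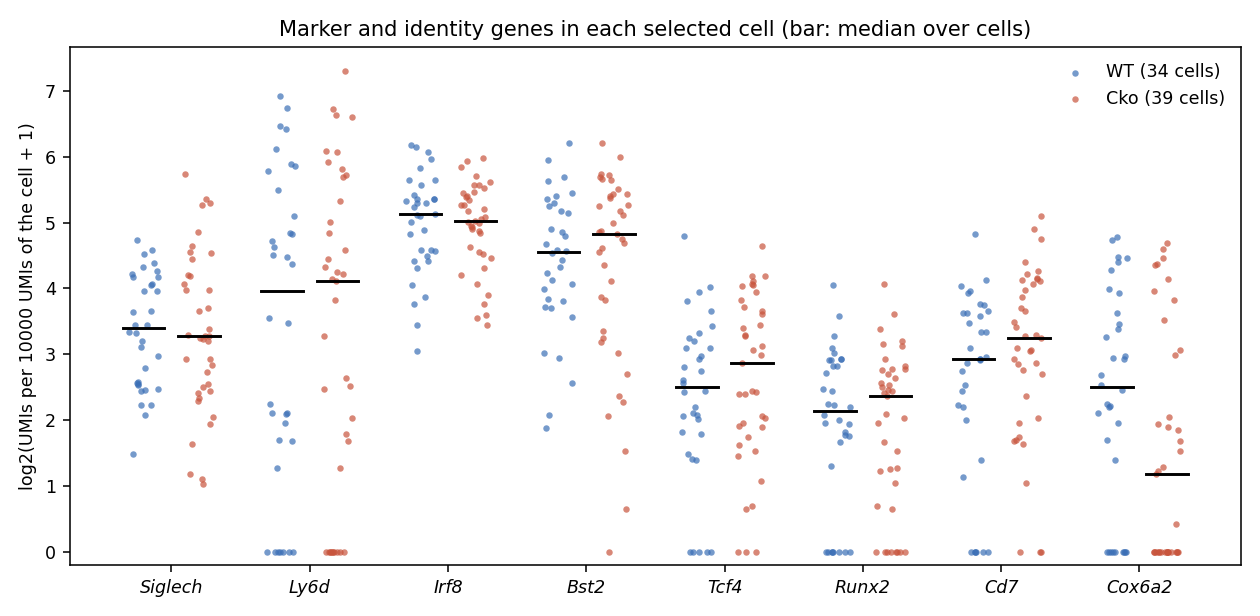
UMIs of 8 genes in each pDC-like cell, as log2 of UMIs per 10000 UMIs of the cell plus 1 (vertical axis), for 34 WT and 39 Cko cells; each point is a cell and each bar the median over cells. *Irf8* is above 0 in every cell of both libraries, whereas *Ly6d* is at 0 in 7 WT and 10 Cko cells; *Siglech* was used to choose the cells.

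Levels were summed over the cells and scaled to counts per 1000000 UMIs (CPM). *Irf8* was at 3295 CPM in WT (95% Poisson interval 3030 to 3577) and 2701 in Cko (2504 to 2909). In all other kept cells it was at 75.8 and 121 CPM. Folds over other cells were taken after 10 CPM was added to both levels, which lowers the fold of rare genes most. *Bst2* was at 2133 CPM in WT and 1939 in Cko, against 57.0 and 44.4 in other cells. *Ly6d* was at 2439 and 2133 CPM, against 37.1 and 52.9. The 3 markers that the selection did not read were thus all far higher than in other cells, by folds of 38.5 and 20.7 for *Irf8*, 32.0 and 35.9 for *Bst2* and 52.0 and 34.1 for *Ly6d* in WT and Cko.

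Free RNA and depth were checked by thinning each cell to 3000 UMIs, which left out no pDC-like cell as too shallow. The selection itself used unthinned *Siglech* counts and so depends on depth. With *Siglech* counted after thinning, the rule kept 25 WT and 26 Cko cells. After thinning *Irf8* was found in 100% of pDC-like cells of both libraries (100% unthinned), against 2.80% of WT and 2.76% of Cko erythroid cells (5.30% and 6.22% unthinned), which should lack it. Those erythroid cells had at least 10% hemoglobin UMIs and a median of 6071 and 8050 UMIs. *Bst2* was found in 97.1% and 94.9% of pDC-like cells (100% and 97.4% unthinned), against 92 of 2567 WT and 13 of 434 Cko erythroid cells (6.39% and 8.53% unthinned). *Ly6d* was found in 76.5% and 64.1% (79.4% and 74.4% unthinned), against 3.43% and 0.922% (5.38% and 4.38% unthinned). Each marker was thus found far more often than in cells that should lack it.

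Genes of other lineages give the level of free RNA itself. *Hbb-bs*, a beta globin gene, was found in 34 of 34 WT and 37 of 39 Cko cells, at 1763 and 517 CPM, which was 1.18 and 1.19 times its level in cells that carried B cell genes. Hemoglobin was part of the selection, so this is a description. The most hemoglobin in any selected cell was 0.754% of UMIs in WT and 0.370% in Cko, and the most of the 6 neutrophil genes 0.261% and 1.59%. Of the cells with 2 or more *Siglech* UMIs, the neutrophil limit removed 2 in WT and 1 in Cko, and the hemoglobin limit 3 in WT and 0 in Cko. Of the removed cells, those nearest to the limits had 6.06% neutrophil genes, in Cko, and 14.6% hemoglobin, in WT.

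At the *Siglech* limit itself, 14 WT and 7 Cko cells lay just outside with 1 UMI and 4 WT and 9 Cko cells just inside with 2. In the cells just outside, *Irf8* was at 574 and 903 CPM and *Ly6d* at 136 and 267. In those just inside *Irf8* was at 3415 and 2147 and *Ly6d* at 2754 and 2133. *Runx2* went from 65.1 and 63.6 CPM outside to 404 and 228 inside. Cells with 1 *Siglech* UMI had less of each of these genes than cells with 2 in both libraries, but more *Irf8* than the cells with none, which had 156 and 202 CPM.

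The 25 genes that stood highest over other cells in both libraries, each with at least 20 UMIs in each, were led by *Siglech*, *Cd7*, *Ly6d*, *Bst2*, *Cox6a2*, *Upb1*, *Cd209d*, *Runx2*, *Irf8*, *Ccr9* and *Tcf4*. *Cd7*, a surface receptor best known from T and NK cells, was 52.4 times higher than in other cells in WT and 43.3 times in Cko. *Cox6a2*, a muscle-type subunit of cytochrome oxidase, was 54.1 and 26.7 times higher, and *Upb1*, an enzyme of pyrimidine breakdown, 34.6 and 22.9 times. *Cd209d*, a C-type lectin, was at 260 and 264 CPM, against 0.499 and 2.49. The rest of the 25 were *Rnase6*, *Ctsl*, *Clec10a*, *Atp1b1*, *Ppfia4*, *Lair1*, *Ly6a*, *Tmem229b*, *Cyth4*, *Psap*, *Pld4*, *Ly86*, *Bmyc* and *Selplg*, with folds from 8.24 to 25.1 in WT and from 6.47 to 13.6 in Cko. Promoter windows were found for 18 of the 25, and 72.2% of these held an E-box, against 66.0% of all windows. The interferon-stimulated element was in those of *Bst2* and *Rnase6*.

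**Figure D2:**
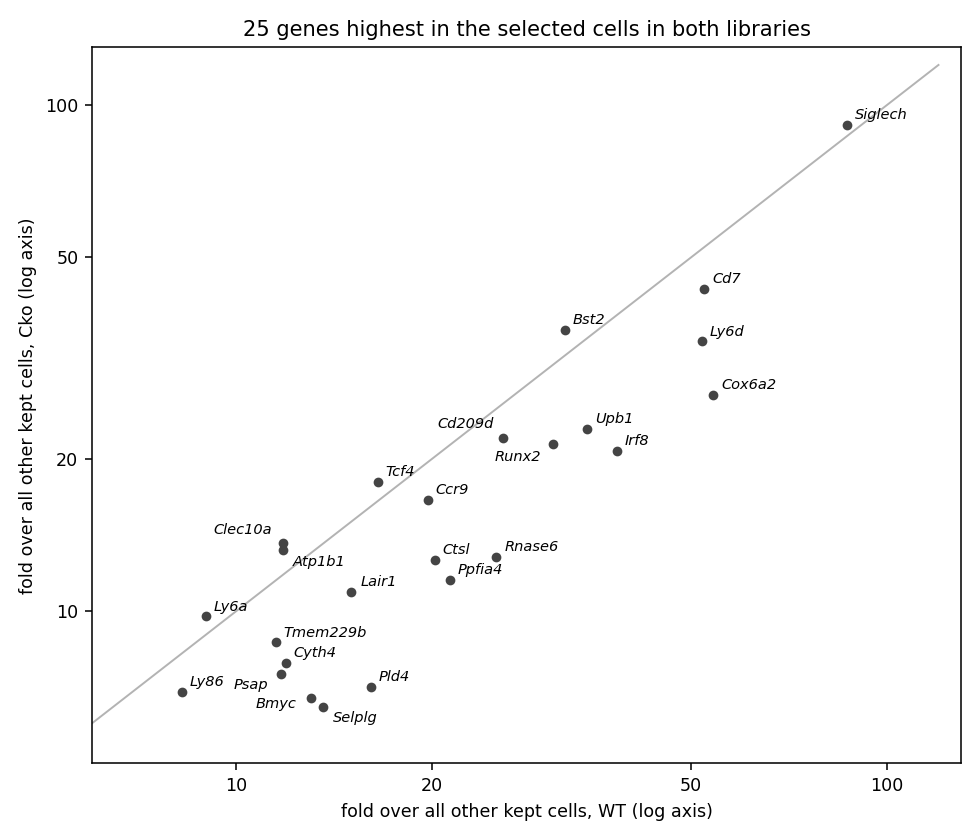
Fold of the 25 leading genes in pDC-like cells over all other kept cells, with 10 CPM added to both levels. WT is horizontal and Cko vertical, both on log axes, with a line of equal fold. The other kept cells differ between the libraries, so a lower fold is not by itself a lower level. Points below the line had a lower fold in Cko; *Siglech* and *Bst2* lie slightly above it, at 91.2 and 35.9 in Cko, and *Cox6a2* and *Irf8* below it, at 26.7 and 20.7.

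Of a list of 34 pDC identity genes, 23 were listed in WT and 24 in Cko, and 21 and 22 of these were at least 2-fold above other cells. Over all listed genes 15.0% passed that limit in WT and 7.53% in Cko. The list's median fold was 8.98 in WT and 5.84 in Cko. The other cells differed between the libraries, with the list's sum at 2100 CPM in WT and 3748 in Cko. In pDC-like cells the sum was 10555 and 10022, so a lower fold in Cko is not by itself a lower level. *Ccr9*, the chemokine receptor that takes pDCs to the gut, was at 197 and 159 CPM, against 0.463 and 0.205 in other cells, and was found in 17 of 34 and 21 of 39 cells. *Pacsin1*, an endocytic adaptor used for interferon production, was at 104 and 148 CPM, against 0.374 and 0.498. *Lair1*, an inhibitory collagen receptor, was 15.0 and 10.9 times higher. *Cd300c* was listed only in Cko, at 128 CPM, and *Paqr5* only in WT, at 133 CPM. *Ly6c2* was on the list but did not mark these cells, at 1185 and 1348 CPM against 637 and 1440 in other cells.

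Per cell, a median of 9.5 of the 23 identity genes in WT and 11 of the 24 in Cko was seen after thinning, with ranges of 3 to 19 and 1 to 19. The median was 2 in both libraries in cells with B cell genes and 3 in both in cells with monocyte genes, whose largest values were 6 to 8. By its summed level the list did not separate pDC-like cells from monocyte gene cells, 10555 and 10022 CPM against 10124 and 8959, and in those cells *Plac8* alone gave 5450 and 4315 CPM and *Ly6c2* 4130 and 4062. By the number of identity genes the median pDC-like cell lay above the highest monocyte gene cell, which had 6 in WT and 7 in Cko.

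Transcription factors of pDCs were high, and 3 factors that conventional dendritic cells use were at or near 0 or not listed. *Tcf4* was at 514 CPM in WT and 567 in Cko (16.5 and 18.0 times other cells), and was found in 29 of 34 and 36 of 39 cells. *Runx2*, which is needed for pDCs to leave the marrow and is better known from bone, was at 387 and 330 CPM (30.7 and 21.4 times). *Spib* was at 243 and 140 CPM, *Bcl11a* at 387 and 392, *Mef2c* at 231 and 210 and *Irf7*, which switches on type I interferon genes, at 86.7 and 50.5. After thinning *Spib* was found in 47.1% and 38.5% of pDC-like cells, but also in 28.5% and 25.3% of cells with B cell genes. *Id2*, an inhibitor of E proteins, was at 0 CPM in WT, where 3 UMIs would be 17.3 CPM, and at 15.5 in Cko with 4 UMIs. *Irf4* was at 0 in both libraries, and *Batf3* was at 0 in WT and was not listed in Cko. Of 26 and 25 listed factors, 18 in WT and 13 in Cko were at least 2-fold above other cells, against 15.0% and 7.53% of all listed genes. The marker list of conventional dendritic cells was nevertheless above other cells as a sum, at 3566 and 3645 CPM against 567 and 1376. Of its genes 9 of 14 in WT and 9 of 15 in Cko passed the 2-fold limit, beside the same shares of all listed genes. Among them were *Cd74*, *Clec10a* and MHC class II genes in both and *Cst3* in WT.

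Genes of nucleic acid sensing could be read only in part. *Tlr7* and *Tlr9*, the endosomal receptors for RNA and DNA, were not listed. *Unc93b1*, which carries these receptors to the endosome, was at 318 and 381 CPM (5.61 and 3.54 times other cells). *Tyrobp*, the adaptor that *Siglech* signals through, was at 3150 and 3179 CPM and was found in all 34 and all 39 cells. After thinning *Tyrobp* was also found in 96.3% and 98.2% of monocyte gene cells and in 66.7% and 100% of MHC class II cells. Both kinds of cell are defined below and held no *Siglech* UMI. *Myd88* was at 23.1 and 15.5 CPM, with 4 UMIs in each library. Of this list 15 of 19 genes in WT and 10 of 20 in Cko were at least 2-fold above other cells, although *Siglech* and *Bst2* are among them. Over all listed genes 15.0% passed that limit in WT and 7.53% in Cko.

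Lysosomal genes were higher as a group than in all other cells, 9994 CPM in WT and 8705 in Cko against 1837 and 2972. Of 20 genes, 15 and 12 were at least 2-fold above other cells, against 15.0% and 7.53% of all listed genes. The sum was higher still in MHC class II cells, at 10796 and 12460 CPM, and was 6800 and 7556 in monocyte gene cells. *Ctsl*, a cathepsin, was at 509 and 431 CPM, and *Psap*, the precursor of the saposins, at 2139 and 2262. *Grn* (progranulin) was at 803 and 536 and *Ctsh* at 705 and 587. Of homing and adhesion genes, *Selplg*, the P-selectin ligand, was at 636 and 536 CPM. *Cxcr4*, the receptor that retains cells in the marrow, was at 28.9 and 15.5 CPM, with a fold of 1.51 in WT and 0.586 in Cko.

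pDC-like cells were compared with 3 other kinds of cell, and had the highest level of each of the 3 markers that the selection did not use. The comparison cells held no *Siglech* UMI, were inside both limits, and were defined after the data were seen: 1492 B gene cells (at least 3 UMIs of *Cd79a* and *Cd79b*), 63 MHC class II cells (at least 5 UMIs of *H2-Aa*, *H2-Ab1* and *H2-Eb1*, no B cell UMI) and 797 monocyte gene cells (at least 3 UMIs of *Csf1r*, *Ms4a6c* and *F13a1*, no B cell UMI, not among the MHC class II cells). *Ly6d* was at 175 and 226 CPM in B gene cells, at 0 and 6.62 in MHC class II cells and at 2.92 and 4.19 in monocyte gene cells. *Irf8* was nearest in monocyte gene cells, at 525 and 386 CPM, so that the fold of pDC-like cells over these was 6.18 in WT and 6.84 in Cko. *Tcf4* was at 62.6 and 52.5 CPM in B gene cells and at 22.1 and 21.7 in monocyte gene cells. No gene of the neutrophil or erythroid lists was at least 2-fold above other cells in either library, which the selection fixes in part.

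Markers of other lineages were present in a part of the pDC-like cells. Of B cell markers, *Cd79b* was found in 17 of 34 and 20 of 39 cells, at 168 and 202 CPM, while *Cd79a* was found in 6 and 6 cells. At least 3 UMIs of *Cd79a*, *Cd79b* and *Ms4a1* were held by 5 WT and 7 Cko cells. In these, *Ebf1*, which commits cells to the B lineage, was at 2185 and 623 CPM, against 55.1 and 9.56 in the other cells. *Vpreb3*, a gene of B cell precursors, was at 1433 and 768 CPM, against 62.0 and 14.3. The same cells held *Irf8* at 1756 and 2512 CPM and *Siglech* at 752 and 997, so that both sets of genes were read from the same barcodes. Whether 2 cells shared such a barcode was not tested beyond the doublet call, which marked none of them.

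A few other cells stood apart. The deepest Cko cell, with 28519 UMIs, held 1051 UMIs of the primary granule genes *Elane*, *Mpo*, *Prtn3* and *Ctsg*, and 3 *Siglech* UMIs. A second Cko cell held 57, and no WT cell more than 6. A WT cell with 8279 UMIs held all of the *Prg4* (191), *Igfbp5* (76) and *Fn1* (69) UMIs of the WT cells, genes known from synovium, stroma and matrix, together with 25 UMIs of *Fgl2*. Of the T cell receptor complex, *Cd3d* and *Cd3g* were each found in 1 WT cell and *Cd3e* in 2. The T and NK list as a whole was at 994 and 1119 CPM against 227 and 342 in other cells, and *Cd7* made up 613 and 758 CPM of it. Of its genes 10 of 14 and 5 of 14 were at least 2-fold above other cells, against 15.0% and 7.53% of all listed genes. *Klrd1*, a receptor chain of NK cells, was found in 14 and 17 cells, whereas *Ccl5*, *Gzma* and *Klrb1c* were at 0. Of the monocyte and macrophage list, 7 of 15 genes in WT and 2 of 15 in Cko were at least 2-fold above other cells, against 15.0% and 7.53% of all listed genes, and 4 and 5 were at least 2-fold below. The list's sum was at 1636 and 1247 CPM against 2475 and 6490, with *Csf1r* in 1 and 4 cells and *C1qa* and *C1qc* at 0.

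Among themselves the pDC-like cells were split by *Ly6d*, by cell division genes and by MHC class II. The first split is by *Ly6d*, at 5 of 3000 thinned UMIs, a limit set after the data were seen, which 17 of 34 WT and 18 of 39 Cko cells reached. Above it *Ly6d* was at 4859 and 4946 CPM and below it at 345 and 349. *Siglech* was at 1071 and 1272 CPM above and at 820 and 711 below. *Cd209d* went the other way, 87.2 and 190 above and 410 and 311 below. *Csf1r* was at 0 in all cells above the limit and at 32.4 and 31.8 below it, which are 3 and 5 UMIs. The 3 UMIs of WT all came from 1 cell. *Irf8* was at 3501 and 2843 above and 3117 and 2610 below, and without the deepest Cko cell and the WT cell with *Prg4*, described above, it was at 3820 and 2843 above and 3117 and 2909 below, so that its order in Cko rests on 1 cell.

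Cells with high levels of mitosis genes were a minority. Genes of G2 and mitosis made up at least 1% of the UMIs in 9 WT cells (26.5%, exact binomial interval 12.9% to 44.4%) and 5 Cko cells (12.8%, 4.30% to 27.4%), and 10 and 5 cells lay between 0.5% and 2%. In B gene cells the same limit was reached by 46.5% and 39.7% and in monocyte gene cells by 21.1% and 14.1%, so that the shares in pDC-like cells were below those of B gene cells and near those of monocyte gene cells. The mitosis-high cells had more *Irf8*, 4018 and 3415 CPM against 2951 and 2568 in the others, and less *Bst2*, 1309 and 1213 against 2524 and 2075. *Ccr9* was at 71.8 and 24.7 CPM in mitosis-high cells and at 256 and 184 in the others, and *Cd209d* at 17.9 and 124 against 375 and 290. *Irf8* thus differed in the direction opposite to *Bst2*, *Ccr9* and *Cd209d* in both libraries. Mitosis-high cells were deeper, with a median of 5991 and 8445 UMIs against 3934 and 4374.

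MHC class II genes, which present antigen to CD4 T cells, were carried by some of the cells. At least 5 UMIs of *H2-Aa*, *H2-Ab1* and *H2-Eb1* were held by 6 WT cells (17.6%, interval 6.76% to 34.5%) and 14 Cko cells (35.9%, 21.2% to 52.8%), and none of these was among the mitosis-high cells; 2 and 6 cells held 3 to 7 UMIs, near the limit. No UMI of the 3 genes was found in 23 WT and 21 Cko cells. *Cd74*, the invariant chain, was at 4596 and 3052 CPM in the carriers and at 83.7 and 166 in the others. The carriers also had more *Ccr9* (304 and 276 CPM against 174 and 92.0), *Ly6c2* (2771 and 1844 against 858 and 1062) and *Ly6a* (439 and 329 against 55.8 and 30.7), and a median of 13.5 and 13 identity genes against 9 and 8. The others include all the mitosis-high cells. The WT carriers include the cell with *Prg4* and the Cko carriers the deepest cell. Without those 2 cells the carriers had *Ccr9* at 375 and 395 CPM, *Ly6c2* at 3426 and 1367 and *Ly6a* at 235 and 471. The median of identity genes in the carriers was then 14 and 14. *Irf8* was at 1555 and 2395 CPM in the carriers and at 3654 and 2878 in the others, but without those 2 cells the carriers were at 1877 and 2886, so that the difference was seen in WT and not in Cko. B cell genes also moved with the carriers. At least 3 B gene UMIs were held by 1 of the 6 WT and 5 of the 14 Cko carriers, *Cd79a* was at 406 and 413 CPM against 146 and 12.3, and *Ebf1* at 744 and 329 against 328 and 6.14. Without the cell with *Prg4* both genes were at 0 in the WT carriers. The part of B cell genes in these differences was not tested. The carriers were below the MHC class II cells, where *Cd74* was at 6082 and 10568 CPM.

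**Figure D3:**
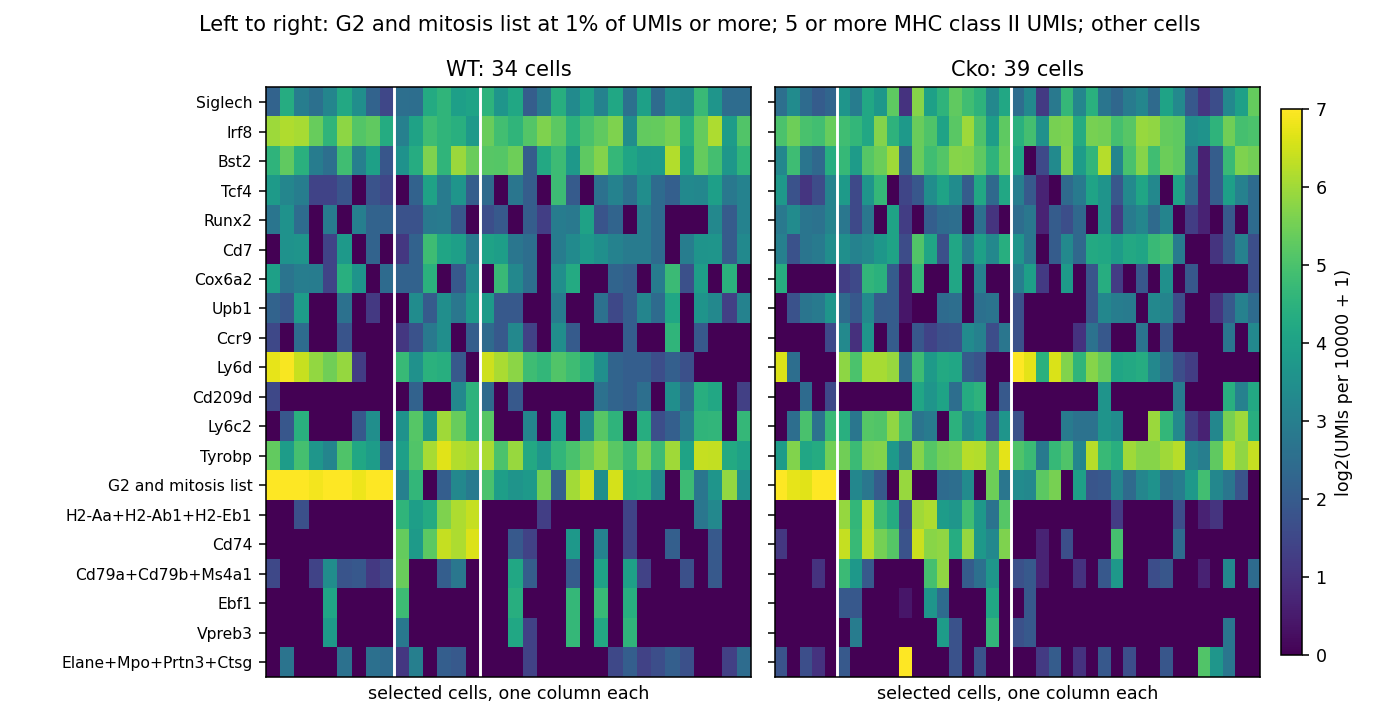
Each column is a pDC-like cell of WT (left panel) or Cko (right panel) and each row a gene or gene sum, coloured by log2 of UMIs per 10000 plus 1. White lines part, from left to right, the cells with at least 1% G2 and mitosis UMIs (9 and 5), the cells with at least 5 MHC class II UMIs (6 and 14) and the others; colours stop at 7, and the bright entry in the lowest row of Cko is the cell with 1051 primary granule UMIs.

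The study asked what S1P ablation does to marrow cells, and the first comparison is of cell numbers. pDC-like cells were 0.542% of kept cells in WT (exact interval 0.376% to 0.757%) and 1.06% in Cko (0.758% to 1.45%), a ratio of 1.96 (1.21 to 3.21). The ratio fell to 1.13 (0.694 to 1.84) when cells with hemoglobin of 1% or more were left out of the denominator, with shares of 1.09% and 1.23%. It was 1.43 (0.881 to 2.34) among cells inside both limits, with shares of 1.52% and 2.18%. Both of these intervals include 1. WT had 2567 cells with at least 10% hemoglobin and Cko 434, and the shares of pDC-like cells move with them.

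Cko and WT were next compared within pDC-like cells. Among 1156 genes listed in both libraries with at least 50 UMIs over both, 28 (2.42%) were at least 2-fold higher in Cko and 43 (3.72%) at least 2-fold lower. The split depended on the scaling. It was 43 and 24 when hemoglobin, mitochondrial, ribosomal protein and neutrophil granule genes were kept out of the totals, 39 and 25 when the median gene was set to a ratio of 1, and 28 and 71 when each cell had equal weight. The median gene had a log2 ratio of -0.16, and single values are best read against it. In cells inside both limits with no *Siglech* UMI the same genes had a median of -0.03.

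*Siglech*, which the selection used, was at 936 and 929 CPM. Of the other genes that define the cells, *Tcf4* had a log2 ratio of 0.14 (-0.25 to 0.54), *Runx2* at -0.23 (-0.71 to 0.25), *Cd7* at 0.31 (-0.04 to 0.66), *Bst2* at -0.14 (-0.33 to 0.06), *Irf8* at -0.29 (-0.45 to -0.12) and *Ly6d* at -0.19 (-0.38 to -0.01). With cells of 1 *Siglech* UMI added, *Irf8* was at 0.23 and *Ly6d* at 0.38. None of the 17 identity genes with at least 50 UMIs was past 2-fold in either direction, against 2.42% higher and 3.72% lower among all such genes. The sum of the identity list had a log2 ratio of -0.08 (-0.17 to 0.00). The lowest of the named identity genes was *Cox6a2*, at 665 CPM in WT and 342 in Cko, a log2 ratio of -0.96 (-1.38 to -0.55), found in 25 of 34 and 21 of 39 cells. In B gene cells *Cox6a2* had a log2 ratio of 0.25. *Upb1* had -0.57 (-1.07 to -0.07) and *Rnase6* -0.52 (-0.91 to -0.13).

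Cell division genes were lower in Cko as a sum. The G2 and mitosis list was at 7399 CPM in WT and 4069 in Cko, a log2 ratio of -0.86 (-0.98 to -0.74), against -0.20 in B gene cells and -0.31 in monocyte gene cells. Of its 17 genes with at least 50 UMIs, 7 were at least 2-fold lower in Cko and 0 higher, against 3.72% lower and 2.42% higher among all such genes. *Top2a*, the topoisomerase of dividing cells, was at 636 and 264 CPM, found in 22 of 34 and 9 of 39 cells, and *Ube2c* at 867 and 358, but neither was past 2-fold without the cells that held a B cell UMI, at log2 ratios of -0.77 and -0.11. *Hist1h2ap*, a replication histone, was at 1370 and 272 CPM, a log2 ratio of -2.33 (-2.74 to -1.94). It also was lower in Cko in B gene cells, at -1.04. The sum depended on which cells were taken. Without the mitosis-high cells it was -0.36. Leaving out each cell with a *Cd79a*, *Cd79b* or *Ms4a1* UMI kept 16 WT and 19 Cko cells and gave 0.08 (-0.10 to 0.26). That step removed most of the 9 mitosis-high WT cells, nearly all of them on 1 or 2 such UMIs. It kept most of the 5 in Cko. The values of *Top2a* and *Ube2c* without B cell UMIs come from the same cells. The part of B cell genes in these shifts was not tested.

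*Ccnd1*, the cyclin that drives entry into S phase, was at 260 CPM in WT and 77.7 in Cko. It was found in 19 of 34 and 15 of 39 cells, with at most 5 and 3 UMIs in a cell. Its log2 ratio was -1.74 (-2.58 to -0.95), against 0.40 in B gene cells and -2.03 in monocyte gene cells, and it was -0.73 (-1.87 to 0.40) when cells with a B cell UMI were left out. In other kept cells it was at 4.60 and 5.86 CPM, so that in both libraries it was higher in pDC-like cells. *Ebf1* had a log2 ratio of -1.68 (-2.33 to -1.06), and 1 WT cell held 22 of its 69 UMIs and 1 Cko cell 16 of its 32.

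Interferon response genes were lower in Cko as a sum, 7740 CPM in WT and 5755 in Cko, with a log2 ratio of -0.41 (-0.51 to -0.30) over the 28 genes listed in both. The value was -0.20 in B gene cells and -0.13 in monocyte gene cells. It was 0.01 when cells with 1 *Siglech* UMI were added. *Ifi27l2a* was at 1069 and 602 CPM, *Ly6e* at 2936 and 2137, *Ifi203* at 208 and 97.2, *Trim30a* at 168 and 70.0 and *Isg15*, a ubiquitin-like interferon product, at 116 and 31.1. *Isg15* was found in 6 WT and 4 Cko cells, and a WT cell held 60.0% of its UMIs. In B gene cells *Isg15* had a log2 ratio of -1.81, close to the -1.89 of pDC-like cells. Of the 7 list genes with at least 50 UMIs, 1 was past 2-fold higher (*Ifitm2*) and 1 lower (*Ifi203*, at -0.69 when each cell had equal weight). Among all genes with as many UMIs 2.42% were past 2-fold higher and 3.72% lower.

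The sums of MHC genes were higher in Cko. MHC class II presentation was at 2353 CPM in WT and 3000 in Cko, with a log2 ratio of 0.32 (0.15 to 0.50) over the 9 genes in both, and MHC class I at 0.22 (0.10 to 0.35). In B gene cells these were 0.70 and 0.23, and in monocyte gene cells 0.59 and 0.32. *Cd74* was at 855 and 1224 CPM, *B2m*, the light chain of class I, at 1665 and 2281, and *H2-D1* at 717 and 1053. Over the 10 class I genes with at least 50 UMIs the median log2 ratio was -0.28, below the -0.16 of all genes, and *Tapbp* and *Psmb10* were lower in Cko, at 197 and 117 and at 202 and 113 CPM. None of the 6 class II and 10 class I genes with at least 50 UMIs was past 2-fold, against 2.42% higher and 3.72% lower among all such genes. The class II value was -0.12 without cells that held a B cell UMI and 0.61 without the deepest Cko cell and the WT cell with *Prg4*.

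The protease ablated in Cko activates SREBP and ATF6, so their target lists were read. Of 24 cholesterol genes 6 were listed in both libraries, and their sum had a log2 ratio of -0.88 (-1.31 to -0.46), against -0.68 in B gene cells and -1.74 in monocyte gene cells. The sum was at -0.44 (-0.82 to -0.07) when cells with 1 *Siglech* UMI were added. Only 1 of the 6 genes, *Fdps*, had at least 50 UMIs over both libraries. *Fdps*, of isoprenoid synthesis, was at 376 and 214 CPM and *Scd2*, a fatty acid desaturase, at 127 and 31.1. Of the list, 13 genes were listed in WT and 8 in Cko. Over all genes 7181 were listed in WT and 6735 in Cko, 6001 of them in both. A gene that is not listed was not read as 0, and why these genes were not listed was not tested. *Hmgcs1*, *Sqle*, *Fdft1*, *Msmo1* and *Srebf2* were among those listed only in WT, and *Fasn* and *Acat2* were listed only in Cko. The endoplasmic reticulum list was at 7902 and 7442 CPM, with a log2 ratio of -0.09 (-0.19 to 0.01). Of its 20 genes with at least 50 UMIs, *Xbp1*, a factor of the unfolded protein response and secretory cells, was the only one past 2-fold, at 80.9 and 167 CPM. Among all genes with as many UMIs 2.42% were past 2-fold higher in Cko and 3.72% lower. The log2 ratio of *Xbp1* was 1.05 (0.15 to 2.03), against -0.20 in B gene cells, and it was 0.78 when cells with 1 *Siglech* UMI were added. *Mbtps1* was at 52.0 CPM in WT (9 UMIs) and 70.0 in Cko (18 UMIs), with a log2 ratio of 0.43 (-0.80 to 1.76). The reads are tags of the transcript's end and the deleted exon lies near its start, so this is no check of the deletion, and *Sp7* was at 0 in WT and not listed in Cko.

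**Figure D4:**
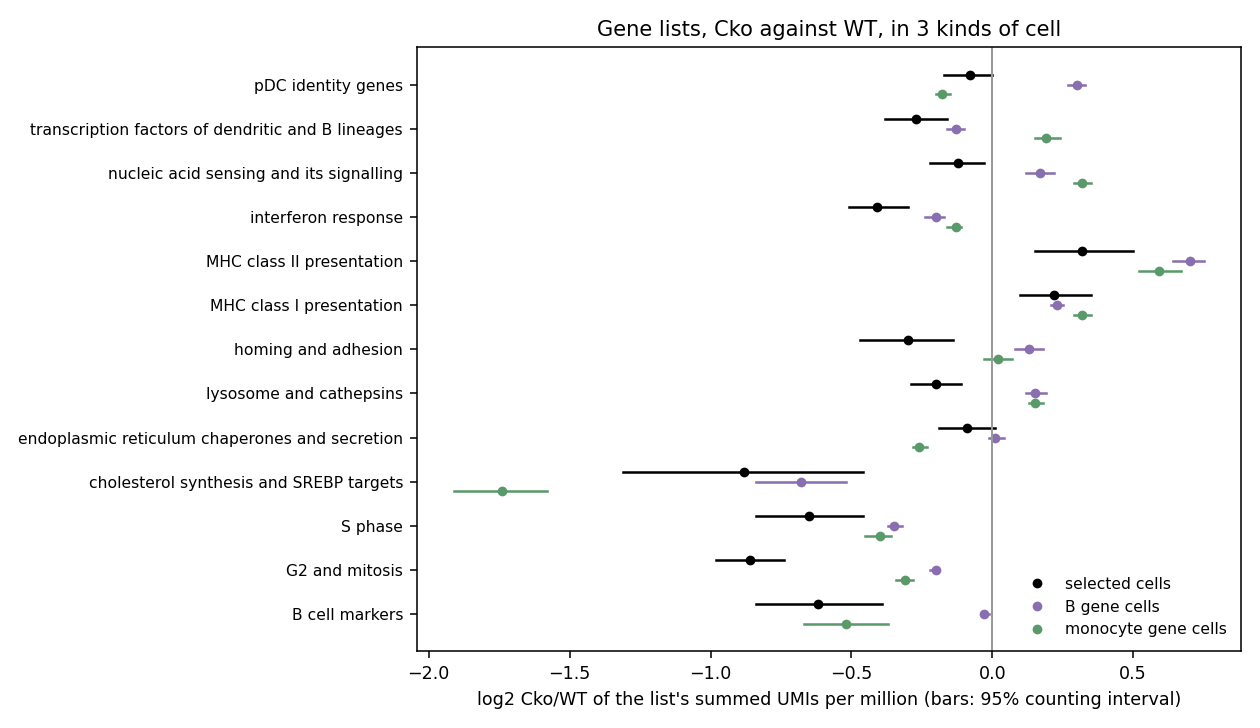
Log2 ratio of Cko over WT for the summed CPM of 13 gene lists (horizontal axis), in pDC-like cells (black), B gene cells (purple) and monocyte gene cells (green), with 95% counting intervals as bars. G2 and mitosis lies at -0.86 in pDC-like cells against -0.20 and -0.31; cholesterol genes lie below 0 in all 3 kinds of cell.

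The 10 highest and 10 lowest ratios were read for the cells they came from. The 4 highest were *Ctsg*, *Elane*, *Mpo* and *Prtn3*, of which the deepest Cko cell held 97.4%, 98.7%, 88.6% and 85.6% of the Cko UMIs. Without it and the WT cell with *Prg4*, *Elane* had a log2 ratio of -0.74 (-2.79 to 1.24). The next 6 were ribosomal protein pseudogenes and copies, *Gm10036*, *Rpl13-ps3*, *Rps10-ps1*, *Rpl27-ps3*, *Gm2000* and *Rpl9-ps6*, with log2 ratios of 1.92 to 2.99. In cells inside both limits with no *Siglech* UMI their ratios were 1.01 to 1.42. Reads of such copies cannot be told apart with certainty from those of their parent genes. At the other end *Igfbp5* was at 76 UMIs in WT and 0 in Cko and *Fn1* at 69 and 2, both from the WT cell with *Prg4*. *Hba-a2*, *Hbb-bt* and *Hbb-bs* had -2.09, -1.92 and -1.77, against -2.04, -2.05 and -1.79 in B gene cells. *Hist1h2ap* and *Ccnd1*, described above, were also among the 10 lowest, and *Blvrb*, *Cdca3* and *Lbr* completed them, at -2.03, -1.73 and -1.69. In B gene cells these 3 had -1.08, -0.06 and -0.44.

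In cells inside both limits with no *Siglech* UMI, 4.07% of the 1156 genes were at least 2-fold higher in Cko. There 0.952% were at least 2-fold lower. Of the genes past 2-fold in pDC-like cells, 13 of the 28 higher and 7 of the 43 lower were among these. *Ly86*, which encodes the partner of a Toll-like receptor relative, was at 249 CPM in WT and 494 in Cko, a log2 ratio of 0.99 (0.48 to 1.52), found in 24 of 34 and 37 of 39 cells with no cell holding over 11.6% of its UMIs. It was 0.90 in B gene cells and 0.40 in monocyte gene cells. *Cst3* (cystatin C) was at 1728 and 1076 CPM, with -0.68 (-0.92 to -0.44) against 0.19 in B gene cells. The Stfa family was at 23.1 and 85.5 CPM, or 4 and 22 UMIs, against 515 and 3458 CPM in other kept cells.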

How the data were processed

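Bone marrow cells of 1 WT and 1 Cko mouse were captured with the 10x Genomics droplet system. Per the labels and methods, the authors made the deposited count tables, UMI counts per gene and cell, with Cell Ranger on GRCm38. The total row and sum column were dropped and barcodes with at least 200 genes were kept. UMIs were summed over cells per library and given as CPM with exact 95% Poisson intervals, shares with exact Clopper-Pearson intervals and Cko/WT ratios with exact conditional intervals; UMIs of 1 library are not replicates, so no p-value was computed. Past 2-fold stands for a call. Doublets were called with Scrublet (scanpy 1.11.5), 122 in WT and 38 in Cko, and kept. Interval code was tested on simulated data. Python 3.11.15, numpy 2.4.6, pandas 2.3.3 and scipy 1.17.1 were used.

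The cells and lists were chosen with earlier results of these data known. Genes named are the markers and list members, the 25 highest over other cells with at least 20 UMIs in each library, the 10 highest and 10 lowest Cko/WT ratios with at least 50 UMIs, *Mbtps1*, *Sp7*, the Stfa family and sex genes. *Prg4* and *Fgl2* were added after their values were seen.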

Additional observations from a re-analysis of the deposited data

How the results depend on the processing

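The share of pDC-like cells and the gene and list ratios were recomputed under 18 alternatives, of which leaving out the granule gene cell with the *Prg4* cell, and leaving out the G2 and mitosis cells, were chosen after seeing the data, as was leaving the former cells out of the subsets. Hemoglobin under 0.2% gave no value, since it kept 0 WT and 34 Cko cells. No paired analysis was possible because each genotype had 1 library. Values below are log2 Cko/WT unless said otherwise, and the causes of the shifts were not tested. The share, the count of genes, the lists and the median folds were labelled against their main values. Of these recomputed values, 86 kept their size, 42 moved further and 4 reversed. Kept size means within the counting interval, or near the main value for the count of genes. The 86 include repeats of the main result. Requiring at least 500 genes, or removing called doublets, kept the same 34 WT and 39 Cko cells. The count of genes and the lists were then unchanged. The share was at 0.89 and 0.96, against 0.97, and the median folds barely differed.

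With 1 or more *Siglech* UMIs, identity genes were at 0.50, interferon response at 0.01, MHC class II at 0.98, endoplasmic reticulum at 0.11, cholesterol at -0.44 and G2 and mitosis at -0.70, 146 genes were past 2-fold, the WT median log2 fold of identity genes over other cells was 2.40, and *Ly6d* was at 0.38, *Irf8* at 0.23, *Ly6e* at 0.02 and *Cst3* at 0.01. With 3 or more, G2 and mitosis was at -0.58. Counting *Siglech* after thinning kept 25 WT and 26 Cko cells. With *Siglech* counted after thinning, interferon response was at -0.25, MHC class II at 0.67, cholesterol at -0.42, G2 and mitosis at -1.42, *Elane* at -0.97 and *Prtn3* at -3.23, and the Cko median log2 fold of identity genes was 3.17.

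Without the neutrophil limit, MHC class II was at 0.09, G2 and mitosis at -0.71 and *Cd74* at -0.00, and with a neutrophil limit of 1% MHC class II was at 0.14. Without the hemoglobin limit, identity genes were at 0.08, interferon response at -0.29, MHC class II at 0.54, endoplasmic reticulum at 0.01 and *Ly6d* at 0.00. Among cells with hemoglobin under 1% the share was at 0.17. Without cells that held a B cell UMI, 31 genes were past 2-fold, identity genes were at -0.18, MHC class II at -0.12, G2 and mitosis at 0.08 and *Isg15* at 0.68.

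Scaled without hemoglobin, mitochondrial, ribosomal protein and granule genes, identity genes were at 0.10, interferon response at -0.22, MHC class II at 0.51, endoplasmic reticulum at 0.10 and G2 and mitosis at -0.68. Scaled to the median gene, identity genes were at 0.07, interferon response at -0.25, endoplasmic reticulum at 0.07 and G2 and mitosis at -0.70. With each cell weighted equally, interferon response was at -0.25, G2 and mitosis at -1.20 and *Ly6d* at 0.03. At least 100 UMIs gave 31 genes past 2-fold and at least 20 gave 311. Without the granule gene cell and the *Prg4* cell, identity genes were at -0.18, MHC class II at 0.61, G2 and mitosis at -1.01 and *Elane* at -0.74. Without the G2 and mitosis cells, identity genes were at -0.20, interferon response at -0.54, MHC class II at -0.00, G2 and mitosis at -0.36 and *Ly6d* at 0.33.

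With 173001 and 257325 UMIs in pDC-like cells, 3 UMIs are 17.3 CPM in WT and 11.7 in Cko, and lower levels could not be read. With 1 mouse per genotype, mouse, library, sex and genotype cannot be told apart.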
